A study of Mus musculus with 5 samples.

Results

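The genes described here are 4 adult globin genes (Hba-a1, Hba-a2, Hbb-bs and Hbb-bt) and 5 other genes of the red cell lineage (Alas2, Slc4a1, Klf1, Gata1 and Epor), which make up 9 of the 30046 rows of the count table. They were measured in marrow stromal cells, which are not of the red cell lineage, by bulk RNA-seq of 5 libraries. Cxcl12-GFP high tdTomato+ cells had been sorted at P21 from femurs of mice given tamoxifen at E12.5. The 3 Dlx5CE-E12.5 libraries (replicates 1, 2 and 3) came from Cxcl12-GFP; Dlx5-creER; R26R-tdTomato mice, whose creER acts in fetal cells that express Dlx5, chiefly of the perichondrium. The 2 Fgfr3CE-E12.5 libraries (replicates 2 and 3, as the labels number them) came from Cxcl12-GFP; Fgfr3-iCreER; R26R-tdTomato mice, whose creER is carried by a transgene and acts in fetal chondrocytes that express Fgfr3. All 5 carried the GFP allele of Cxcl12 and the tdTomato reporter, and each was made from the pooled cells of littermates. The methods give a mixed genetic background for all mice, and the strain make-up of each pool is not given in the sources used here. Between 22035650 and 58166285 reads were counted per library. According to the methods the lineages were read on different sequencers, with long paired reads for Dlx5CE-E12.5 and short single reads for Fgfr3CE-E12.5, whereas the labels name 1 sequencer for both. Lineage and read type cannot be told apart.

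Red cells mature in the marrow around the stromal cells. The hormone erythropoietin acts through its receptor on early progenitors, the transcription factors Gata1 and Klf1 switch on the red cell programme, and haem and globin chains are then made in great quantity. Alpha-like chains are encoded by a cluster on chromosome 11 and beta-like chains by a cluster on chromosome 7, and adult haemoglobin pairs the products of both. Adult mice of common strains carry duplicated alpha and duplicated beta genes whose products are nearly the same.

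Because each globin has a near copy, the letters that separate the copies bear on every globin count given here. The coding sequences of Hba-a1 (chr11:32283511-32284465, plus strand, GRCm38) and Hba-a2 (chr11:32296489-32297298, plus strand) were 426 bases long without the stop codon and differed at 1 base, C381T, counted from 1 at the first coding base of Hba-a1. Those of Hbb-bs (chr7:103826534-103828096, minus strand) and Hbb-bt (chr7:103812524-103813996, minus strand) were 441 bases long and differed at 1 base, C417T, counted from the first coding base of Hbb-bs. The coding stretches around both differences are shown from the GENCODE M21 transcripts, with the differing base in capitals. They lie at chr11:32284313-32284373 (Hba-a1), chr11:32297130-32297190 (Hba-a2), chr7:103826668-103826722 (Hbb-bs) and chr7:103812659-103812713 (Hbb-bt).
Hba-a1: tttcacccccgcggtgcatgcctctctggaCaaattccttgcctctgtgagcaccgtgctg
Hba-a2: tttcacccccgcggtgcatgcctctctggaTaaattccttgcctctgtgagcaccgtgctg
Hbb-bs: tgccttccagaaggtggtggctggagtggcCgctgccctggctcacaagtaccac
Hbb-bt: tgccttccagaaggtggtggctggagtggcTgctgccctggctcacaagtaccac

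Over whole annotated transcripts the copies shared much of their sequence. Of all 50-base stretches, 72.3% of those of Hba-a1 and 89.3% of those of Hba-a2 also occurred in the other alpha copy, and 53.2% of those of Hbb-bs and 58.3% of those of Hbb-bt in the other beta copy. With 150-base stretches the shares were 57%, 73.1%, 45.6% and 50.7%. Alas2 shared 11.5% of its 50-base stretches with other genes (Apex2 and Mir3620), and Slc4a1, Klf1, Gata1 and Epor shared none. How reads that match both copies were counted is not given in the sources used here, so the values of single globin copies are uncertain, and sums over both copies are given beside them.

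RefSeq promoters were matched for 8 of the 9 genes (GRCm38.p6), and the 150 bases before each start were searched on both strands for 4 short motifs of red cell promoters. GATAA, the core letters read by GATA factors, was present in 13.3% of 32851 promoters. CACCC, the box read by Klf1 and its relatives, was present in 37.4%. The CCAAT box was present in 24.5%, and the TATAA box in 14.2%. All 4 globins held the last 3 of these and no GATAA, and Hbb-bt held 3 matches each to CACCC and to the CCAAT box. None of the matches in these genes overlapped another. Alas2, Klf1 and Epor held both GATAA and CACCC, and Gata1 held CACCC alone of the 4. The promoters of Hba-a1 and Hba-a2 were the same at all of 297 bases compared, with a shift of 3 bases. A motif match is a description of letters and not a bound site. RefSeq starts and GENCODE exons did not always match. Of the 150 bases, 150 lay in annotated exons of the gene for Hba-a1, 73 for Hbb-bt, 67 for Hbb-bs, 54 for Klf1, 42 for Alas2 and 3 for Hba-a2. The window of Gata1 lay inside the annotated span of the gene, though in none of its exons. Shown with motifs in capitals are the alpha promoter (Hba-a2, chr11:32296342-32296491, plus strand) and those of the genes of the earliest steps, Gata1 (chrX:7967911-7968060, minus strand) and Epor (chr9:21963577-21963726, minus strand).
Hba-a2: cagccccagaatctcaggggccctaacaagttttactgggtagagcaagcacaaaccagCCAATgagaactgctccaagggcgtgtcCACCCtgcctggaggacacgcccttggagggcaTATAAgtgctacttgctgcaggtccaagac
Gata1: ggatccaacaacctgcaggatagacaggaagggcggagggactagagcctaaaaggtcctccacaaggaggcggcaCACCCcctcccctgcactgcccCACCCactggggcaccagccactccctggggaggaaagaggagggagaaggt
Epor: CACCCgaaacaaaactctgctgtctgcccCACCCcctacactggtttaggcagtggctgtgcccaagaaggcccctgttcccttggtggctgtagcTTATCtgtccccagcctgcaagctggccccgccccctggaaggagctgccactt

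Adult globin mRNA was plentiful in every library of these sorted stromal cells. The 4 globins took 3.32%, 1.66% and 2.10% of all counts in Dlx5CE-E12.5 replicates 1, 2 and 3, and 1.43% and 2.11% in Fgfr3CE-E12.5 replicates 2 and 3. Marrow stromal genes were present as the labels have it. Levels are in normalised CPM (counts per 1000000 reads, scaled by TMM library size factors). The summed level of 12 stromal genes (Cxcl12, Lepr, Kitl and others) was 35598 to 37265 in Dlx5CE-E12.5 and 14058 to 16165 in Fgfr3CE-E12.5. Cxcl12, whose allele carried the sorted GFP, was the largest part, with means of 22003 and 6935. Of the 12, 10 were lower in Fgfr3CE-E12.5. The other 2 were higher there, Foxc1 (means 47.7 and 337) and Col1a1 (1858 and 3892). The other 11 defining red cell markers (Rhag, Rhd, Car1 and others) were detected too, none at 0 in all libraries, and summed to 432 to 681 normalised CPM in Dlx5CE-E12.5 and 626 to 1025 in Fgfr3CE-E12.5. For this sort the methods name GFP and tdTomato only. The flow cytometry of the same kinds of mice was gated negative for Ter119, a red cell surface marker, and whether the sort for RNA was gated likewise is not given in the sources used here. Whether red cell RNA came with cells in the sort or free in the suspension was not tested, and in bulk samples fewer cells of a type and less RNA per cell cannot be told apart.

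**Figure D1:**
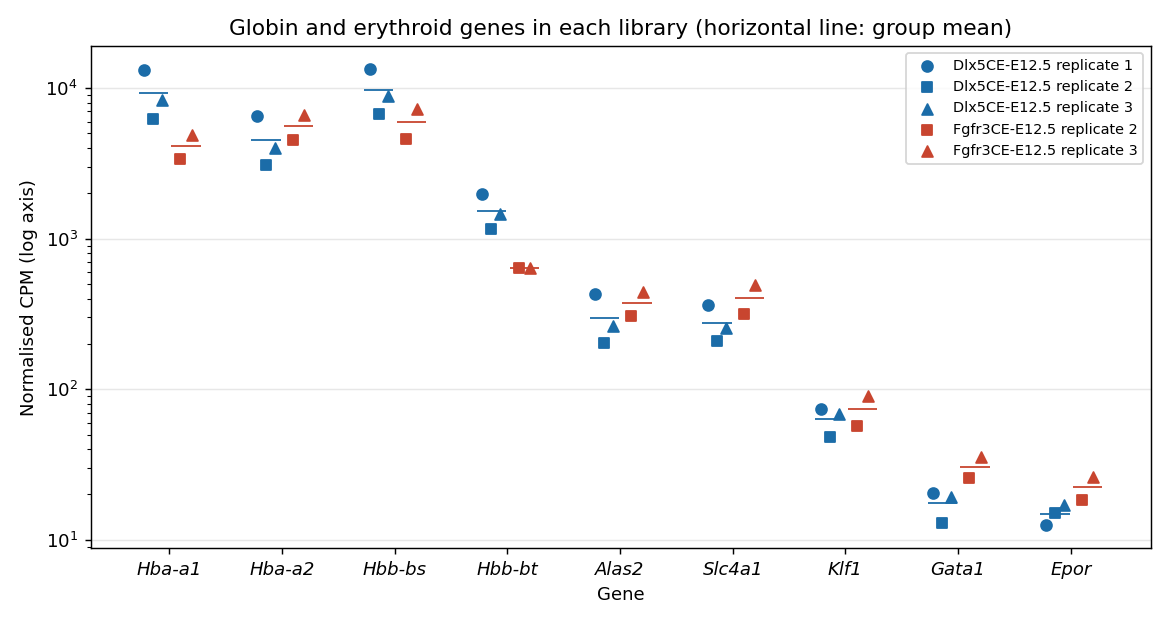
Normalised CPM (log axis) of the 9 genes in each of the 5 libraries, with blue symbols for the 3 Dlx5CE-E12.5 libraries, red for the 2 Fgfr3CE-E12.5 libraries, and a horizontal line at each group mean. Hba-a1 and Hbb-bt were lower in both Fgfr3CE-E12.5 libraries than in any Dlx5CE-E12.5 library, and Gata1 and Epor were higher in both.

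To compare levels between genes they were divided by exonic length. In Dlx5CE-E12.5 the mean level per kilobase was 12593 ± 4474 normalised CPM (SD, n = 3) for Hbb-bs, 11470 ± 4421 for Hba-a1, 6822 ± 2711 for Hba-a2 and 2178 ± 583 for Hbb-bt. Far below stood Alas2 at 124 ± 49.4, Slc4a1 at 56.5 ± 16.1, Klf1 at 41.4 ± 8.99, Epor at 7.45 ± 1.12 and Gata1 at 7.19 ± 1.66. The means of Hbb-bs and Hba-a1 and those of Epor and Gata1 lay closer to each other than their SDs. Hbb-bs nevertheless stood above Hba-a1, and Slc4a1 above Klf1, in each of the 3 libraries, whereas Gata1 stood above Epor in replicate 1 and below it in the other libraries. In Fgfr3CE-E12.5 (n = 2) the order of the globins changed: Hba-a2 stood at 8343 ± 2240 per kilobase, Hbb-bs at 7713 ± 2490, Hba-a1 at 5079 ± 1304 and Hbb-bt at 905 ± 0.818. Hba-a2 and Hbb-bs differed by less than their SD between libraries, with Hba-a2 the higher in both libraries. The other genes kept their order except that Gata1 (12.6 ± 2.84) stood above Epor (11.2 ± 2.76), by less than the SD but in both libraries.

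The comparison between lineages asks whether stromal libraries of perichondrial and of cartilage origin differed in these genes. All 9 passed the study's filter on low values (at least 10 CPM in at least 2 libraries), and a gene was called when edgeR's quasi-likelihood test gave an adjusted p below 0.05 and the fold change exceeded 2 (1 on the log2 scale). Of the 9, 2 were called higher in Dlx5CE-E12.5 (Hba-a1 and Hbb-bt), where 13.1% of all 10088 genes tested were called, and 0 were called higher in Fgfr3CE-E12.5, where 16.4% were. At an unadjusted p below 0.05, 2 members were higher in each lineage. The share of all genes at that level was not taken, so this count is no result about the list. DESeq2 and edgeR's exact test also called 2 and 0, beside 1336 and 1662 genes with DESeq2 and 1327 and 1675 with the exact test. With the adjusted p alone, 1 member (Gata1) was higher in Fgfr3CE-E12.5 and 2 in Dlx5CE-E12.5, beside 25% and 23.4% of all genes. With the wider filter (at least 1 CPM) the counts were again 0 and 2, beside 16.6% and 12.9% of 13225 genes. The libraries of the lineages did not overlap for 4 of the 9 (Hba-a1, Hbb-bt, Gata1 and Epor), against 68.9% of all genes tested. A share of genes this close to or below the background is no result about the list.

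Of the alpha-globin genes, 1 copy was called and the other was not. Hba-a1 was at 13272, 6270 and 8397 normalised CPM in Dlx5CE-E12.5 replicates 1, 2 and 3, and at 3375 and 4873 in Fgfr3CE-E12.5 replicates 2 and 3. Its groups did not overlap, and it was lower in Fgfr3CE-E12.5 by a log2 difference of -1.18 ± 0.36 (SE; edgeR adjusted p = 0.031). Hba-a2 was at 6567, 3074 and 4010 in Dlx5CE-E12.5 and at 4509 and 6621 in Fgfr3CE-E12.5. These groups overlapped, with Dlx5CE-E12.5 replicate 1 close to the top of the range, and the log2 difference was 0.29 ± 0.35 (edgeR adjusted p = 0.52). With both copies summed, the level was 19840, 9344 and 12407 normalised CPM in Dlx5CE-E12.5 and 7884 and 11494 in Fgfr3CE-E12.5, and the log2 difference was -0.52 ± 0.35 (edgeR adjusted p = 0.27). The summed level overlapped between lineages and was not called.

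The call for Hba-a1 rested on few libraries. It was lost without Dlx5CE-E12.5 replicate 1 (log2 difference -0.83), without Dlx5CE-E12.5 replicate 3 (-1.25, edgeR adjusted p = 0.054), without Fgfr3CE-E12.5 replicate 2 (-0.86) and without Fgfr3CE-E12.5 replicate 3 (-1.40, edgeR adjusted p = 0.060). Scaling by library size alone also ended it (-0.96, edgeR adjusted p = 0.051). That scaling placed the median of all genes at 0.22 in place of 0.01 on the log2 scale. Over all 15 alternatives the adjusted p of Hba-a1 ran from 0.000914 to 0.267, and the direction was the same in each.

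Of the beta-globin genes, the minor copy by count, Hbb-bt, was called and Hbb-bs was not. Hbb-bt was at 1972, 1162 and 1459 normalised CPM in Dlx5CE-E12.5 and at 636 and 637 in Fgfr3CE-E12.5. It was lower in both Fgfr3CE-E12.5 libraries than in any other, by a log2 difference of -1.27 ± 0.25 (edgeR adjusted p = 0.0056), and it remained called in every alternative except the sum of copies. Hbb-bs was at 13447, 6727 and 8841 in Dlx5CE-E12.5 and at 4572 and 7276 in Fgfr3CE-E12.5. Here Fgfr3CE-E12.5 replicate 3 lay above Dlx5CE-E12.5 replicate 2, and the log2 difference was -0.71 ± 0.35 (edgeR adjusted p = 0.14). The sum of both copies was 15420, 7890 and 10300 in Dlx5CE-E12.5 and 5207 and 7912 in Fgfr3CE-E12.5, overlapping narrowly, with a log2 difference of -0.77 ± 0.34 (edgeR adjusted p = 0.0997).

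The members that act in haem synthesis and in the red cell membrane were not called. Alas2, the erythroid enzyme of the first and limiting step of haem synthesis (chrX:150547375-150570638, plus strand), was at 431, 201 and 265 normalised CPM in Dlx5CE-E12.5 and at 307 and 445 in Fgfr3CE-E12.5. The groups overlapped, and the log2 difference was 0.33 ± 0.33 (edgeR adjusted p = 0.44). Slc4a1, the band 3 anion exchanger of the red cell membrane (chr11:102348824-102366203, minus strand), was at 363, 210 and 256 in Dlx5CE-E12.5 and at 318 and 495 in Fgfr3CE-E12.5. Its log2 difference was 0.56 ± 0.28 (edgeR adjusted p = 0.14), with Dlx5CE-E12.5 replicate 1 above Fgfr3CE-E12.5 replicate 2.

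The transcription factors and the receptor had low levels, and none was called. Klf1, the factor that drives adult beta-globin transcription (chr8:84901928-84905291, plus strand), was at 74.2, 47.9 and 68.0 normalised CPM in Dlx5CE-E12.5 and at 57.0 and 90.6 in Fgfr3CE-E12.5. Its groups overlapped, with a log2 difference of 0.22 ± 0.26 (edgeR adjusted p = 0.52), and without Fgfr3CE-E12.5 replicate 3 the difference was -0.0925. Gata1, the master factor of the red cell and megakaryocyte lineages (chrX:7959260-7978071, minus strand), was at 20.4, 12.9 and 19.3 in Dlx5CE-E12.5 and at 25.7 and 35.5 in Fgfr3CE-E12.5. Both Fgfr3CE-E12.5 libraries lay above the others, and the log2 difference was 0.80 ± 0.25 (edgeR adjusted p = 0.037), under the fold threshold. It passed that threshold without Fgfr3CE-E12.5 replicate 2 (1.09) and with library size alone (1.01), and over its 14 alternatives the adjusted p ran from 0.0123 to 0.160. Epor, the erythropoietin receptor (chr9:21958897-21963506, minus strand), was at 12.5, 15.1 and 16.9 in Dlx5CE-E12.5 and at 18.4 and 26.2 in Fgfr3CE-E12.5. The groups did not overlap, and the log2 difference of 0.59 ± 0.24 did not pass (edgeR adjusted p = 0.078). Gata1 is shared with megakaryocytes, of which 10 markers (Itgb3, Pf4, Itga2b and others) summed to 16.1 to 22.7 normalised CPM in Dlx5CE-E12.5 and 76.2 to 118 in Fgfr3CE-E12.5. Only Itgb3 passed the study's filter, at 8.16, 15.4 and 11.2 in Dlx5CE-E12.5 and at 46.3 and 59.4 in Fgfr3CE-E12.5. In Fgfr3CE-E12.5, Gata1 and 2 of the 10 markers, Itgb3 among them, were higher in replicate 3 than in replicate 2. The part of megakaryocytes in the value of Gata1 was not tested.

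Within a library, the balance of globins to the other erythroid genes does not depend on depth or scaling. The counts of the 4 globins were 39.1, 35.4 and 36.3 times those of the 5 other genes in Dlx5CE-E12.5 replicates 1, 2 and 3, and 18.0 and 17.8 times in Fgfr3CE-E12.5 replicates 2 and 3. The mean log2 ratio was 5.21 ± 0.07 (SD, n = 3) and 4.16 ± 0.02 (SD, n = 2), a difference of -1.04, or a ratio 2.06-fold higher in Dlx5CE-E12.5. Replicates of a lineage thus lay close together although their globin levels did not. No test was run on this ratio, which is a sum over chosen genes, and an exact permutation test of 3 against 2 libraries could not go below a two-sided p of 0.2. Against the 11 other defining red cell markers the globin counts were 51.7, 39.9 and 42.3 times as high in Dlx5CE-E12.5 and 20.9 and 18.9 times in Fgfr3CE-E12.5.

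The lower balance in Fgfr3CE-E12.5 lay chiefly in 3 of the 4 globins, as far as single copies could be counted apart. Over Alas2 counts, Hba-a2 stood at 15.2, 15.3 and 15.1 in Dlx5CE-E12.5 and at 14.7 and 14.9 in Fgfr3CE-E12.5. That ratio was nearly fixed across all 5 libraries, and Alas2 was also the nearest gene to Hba-a2 in these data. Over Slc4a1, Hba-a2 stood at 18.1, 14.7 and 15.7 against 14.2 and 13.4. Over Gata1 it stood at 322, 238 and 208 against 175 and 187. Hba-a2 was thus lower over these genes too in both Fgfr3CE-E12.5 libraries. Over Alas2, Hba-a1 stood at 30.8, 31.1 and 31.7 in Dlx5CE-E12.5 and at 11 and 10.9 in Fgfr3CE-E12.5. Hbb-bs stood at 31.2, 33.4 and 33.4 against 14.9 and 16.3, and Hbb-bt at 4.57, 5.77 and 5.51 against 2.07 and 1.43. With Hba-a2 alone over the 5 other genes the log2 difference between lineages was -0.12, with the alpha copies summed -0.93 and with the beta copies summed -1.20.

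The balance between copies also differed by lineage. Hba-a1 counts were 2.02, 2.04 and 2.09 times those of Hba-a2 in Dlx5CE-E12.5 and 0.749 and 0.736 times in Fgfr3CE-E12.5, a change in which copy had the higher count. The mean log2 ratio differed by -1.47, with an SD of 0.03 and 0.02 within the lineages. Hbb-bs counts were 6.82, 5.79 and 6.06 times those of Hbb-bt in Dlx5CE-E12.5 and 7.19 and 11.4 times in Fgfr3CE-E12.5, so the Fgfr3CE-E12.5 libraries differed from each other more than Dlx5CE-E12.5 libraries did. Summed alpha over summed beta counts were 1.29, 1.18 and 1.20 against 1.51 and 1.45. Copies that share most of their letters, a mixed strain background and read types that coincide with lineage stand beside all of these ratios, and their part was not tested.

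**Figure D2:**
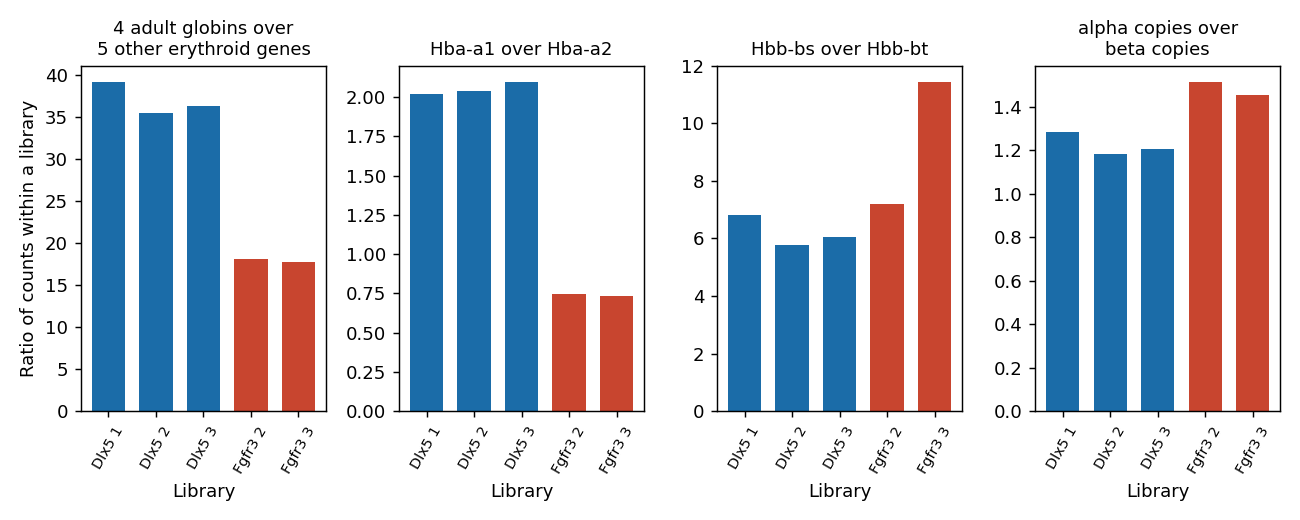
Ratios of counts within each library (linear axes from 0, 1 bar per library, blue for Dlx5CE-E12.5 and red for Fgfr3CE-E12.5): the 4 adult globins over the 5 other erythroid genes, Hba-a1 over Hba-a2, Hbb-bs over Hbb-bt, and both alpha over both beta copies. The first ratio was 35.4 to 39.1 against 17.8 to 18.0, and Hba-a1 over Hba-a2 was 2.02 to 2.09 against 0.736 to 0.749.

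Most of the genes kept the same order of libraries within a lineage. In Dlx5CE-E12.5, 8 of the 9 were highest in replicate 1, the exception being Epor, where 39.9% of the 10824 features at 10 or more CPM in 2 libraries were. From replicate 2 to replicate 1 the level was 2.12-fold for Hba-a1, 2.14-fold for Hba-a2, 2.00-fold for Hbb-bs, 1.70-fold for Hbb-bt, 2.14-fold for Alas2 and 1.73-fold for Slc4a1. The regulators spread less, at 1.55-fold for Klf1, 1.58-fold for Gata1 and 0.824-fold for Epor. The globins, Alas2 and Slc4a1 thus spread more between these 2 libraries than the regulators did. From replicate 2 to replicate 3 this did not hold. There Klf1 was at 1.42-fold, Gata1 at 1.49-fold and Epor at 1.12-fold, and the globins, Alas2 and Slc4a1 at 1.22-fold to 1.34-fold. In Fgfr3CE-E12.5, 8 of the 9 were higher in replicate 3 than in replicate 2 by 1.38-fold to 1.59-fold, beside 48.0% of features higher there at all, and Hbb-bt was level at 1.00-fold. White cell genes moved the same way there: 12 of 12 pan-leukocyte markers (Ptprc, Cd52, Coro1a and others) were higher in replicate 3, with sums of 1646 and 3556 normalised CPM against 534 to 712 in Dlx5CE-E12.5, and 12 neutrophil markers (S100a8, S100a9, Elane and others) summed to 7291 and 17987 against 2581 to 3229. In Dlx5CE-E12.5 these lists did not run alike: the pan-leukocyte sum was 712, 604 and 534 in replicates 1, 2 and 3, with 10 of 12 markers highest in replicate 1, as were 8 of 10 B lineage markers, whereas the neutrophil sum was 2743, 3229 and 2581. The part of these cells in the values of the 9 genes was not tested.

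**Figure D3:**
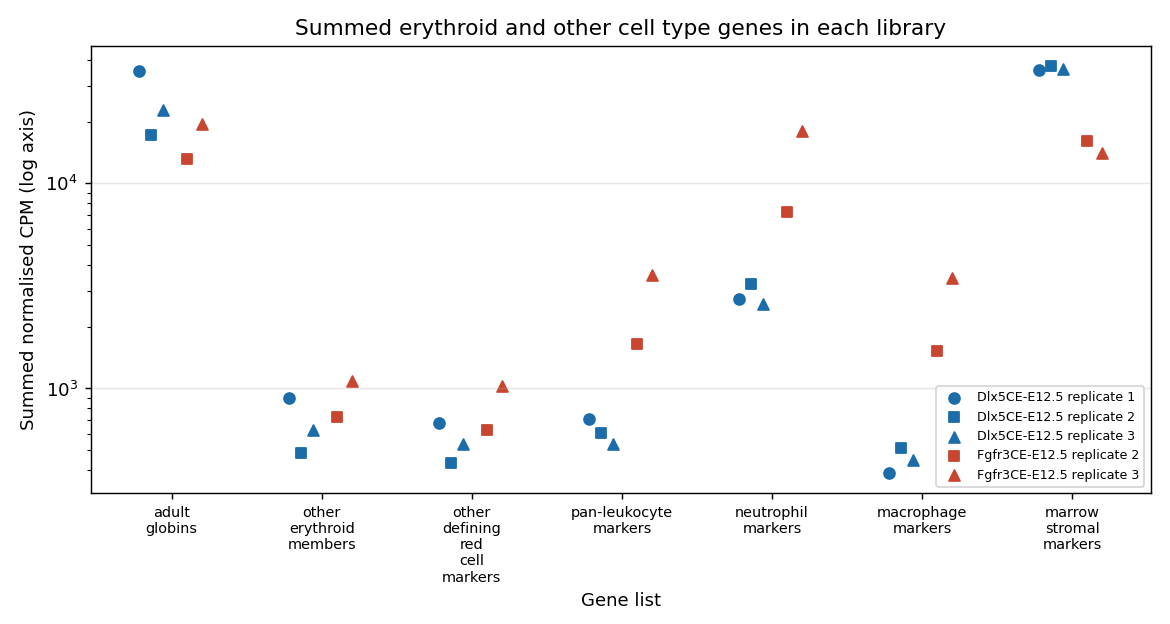
Summed normalised CPM (log axis) of 7 gene lists in each library, blue for Dlx5CE-E12.5 and red for Fgfr3CE-E12.5. The globin sum overlapped between lineages, whereas the pan-leukocyte, neutrophil and macrophage sums were higher in both Fgfr3CE-E12.5 libraries. The stromal sum, of which Cxcl12 was the largest part, was lower in both.

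The genes most like each member across the 5 libraries were sought by the root mean square distance of centred log2 CPM, as a description with no test. The nearest gene to Hba-a2 was Alas2 and to Alas2 was Hba-a2, at a distance of 0.021. The next for both was Bpgm, which makes the red cell metabolite bisphosphoglycerate (0.091 from Hba-a2 and 0.085 from Alas2), followed by Trmt61a for Hba-a2 and Stambpl1 for Alas2. Nearest to Slc4a1 was Car2, a carbonic anhydrase abundant in red cells (0.039), then Ccdc69 and Top1mt. Nearest to Klf1 was Slc25a38, the mitochondrial glycine carrier for haem synthesis (0.057), then Tinagl1 and the red cell water channel Aqp1 (0.076). For Epor these were Slc43a1, Impdh1 and Tmem164 (0.055 to 0.061), and for Gata1 they were Hbegf, Spsb4 and Atp1b1 (0.075 to 0.091). The other globins had no gene of the erythroid lists among the nearest. Hba-a1 was nearest to Ccdc113, Ankrd29 and Fam19a5 (0.122 to 0.152), Hbb-bs to Calhm5, Tubb2b and Manf (0.135 to 0.151), and Hbb-bt to Cxcl16, Colca2 and Akr1c13 (0.038 to 0.072).

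Embryonic globins had few or no counts beside the adult genes. Hbb-y and Hbb-bh1, the embryonic beta-like chains, had at most 2 and 3 counts in any library, and Hbb-bh1 had 0 in all Dlx5CE-E12.5 libraries, which allows up to 0.0921 to 0.136 CPM in each. The theta globin Hbq1a had 8 to 39 counts per library. Its copy Hbq1b had 235, 75 and 118 counts in Dlx5CE-E12.5 and 317 and 650 in Fgfr3CE-E12.5, with a log2 difference of 0.51 ± 0.44 in the wider fit (edgeR adjusted p = 0.38). Other embryonic globins were not analysed here.

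Across the wider red cell programme, 82 genes of 7 lists other than the 9 members had a row in the counts, and 75 of them were tested. Of those, 16 were called higher in Fgfr3CE-E12.5, 4 higher in Dlx5CE-E12.5 and 55 were not called, beside 16.4% and 13.1% of all genes tested. Their median log2 difference was 0.31, beside 0.01 for all genes tested. Several of the genes called higher in Fgfr3CE-E12.5 are also expressed by white cells, their progenitors or platelets, and the part of those cells, whose sums are given above, was not tested.

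Of 13 haem synthesis genes, 3 were called higher in Fgfr3CE-E12.5 and 0 lower, beside 16.4% and 13.1% of all genes, and with the edgeR adjusted p alone 6 were higher and 0 lower, beside 25% and 23.4%. Cpox, coproporphyrinogen oxidase, was at 24.7, 15.8 and 19.3 normalised CPM in Dlx5CE-E12.5 and 141 and 174 in Fgfr3CE-E12.5, a log2 difference of 2.98 ± 0.21 (edgeR adjusted p = 0.00010). Abcb10, a mitochondrial transporter, rose by 1.19 ± 0.18 and Alad, the second enzyme of the path, by 1.07 ± 0.16. The median of the list was 0.46. Among 11 genes of iron uptake and haem handling, Slc25a28, a mitochondrial iron importer, was higher in Fgfr3CE-E12.5 by 2.08 ± 0.21 and Steap3, the endosomal ferrireductase, was lower by a log2 difference of -1.84 ± 0.19. The other 9 were not called, beside 16.4% and 13.1% of all genes called higher and lower, and the median was -0.35.

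Of 19 tested genes of the red cell membrane and cytoskeleton, 3 were called higher and 1 lower in Fgfr3CE-E12.5, beside 16.4% and 13.1% of all genes. Tspan33, a tetraspanin, was at 3.59, 4.33 and 6.09 normalised CPM in Dlx5CE-E12.5 and 57.9 and 95.6 in Fgfr3CE-E12.5, a log2 difference of 4.04 ± 0.31 (edgeR adjusted p = 0.00012). Tmod1, which caps actin filaments, differed by 1.31 ± 0.27 and Kel, the Kell blood group protein, by 1.09 ± 0.32. Dmtn, the actin-bundling protein dematin, was lower by a log2 difference of -2.17 ± 0.25. Of 13 tested late cytoplasmic proteins 1 was called, the ubiquitin ligase Mkrn1, higher by 2.94 ± 0.25. This stood beside the same 16.4% and 13.1% of all genes, and the list median was 0.18.

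Of the 14 erythroid transcription factors 6 were called higher in Fgfr3CE-E12.5 and 0 lower, beside 16.4% and 13.1% of all genes, with 2 lower at an adjusted p below 0.05 in edgeR but under the fold threshold, and the list median was 0.60. Zfpm1, the partner of Gata1, was higher by 3.29 ± 0.54, Gata2, a factor of early progenitors, by 2.98 ± 0.47 and Myb, a progenitor factor, by 2.97 ± 0.52. In the list of erythropoietin signalling 2 of 10 tested genes were called higher, the receptor tyrosine kinase Kit (2.96 ± 0.34) and the Src family kinase Lyn (1.38 ± 0.13). The kinase Pim1 (-2.56 ± 0.35) and Cish, a feedback inhibitor of cytokine receptors (-1.08 ± 0.20), were called lower. The other 6 tested genes of the list were not called, beside 16.4% and 13.1% of all genes called higher and lower.

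**Figure D4:**
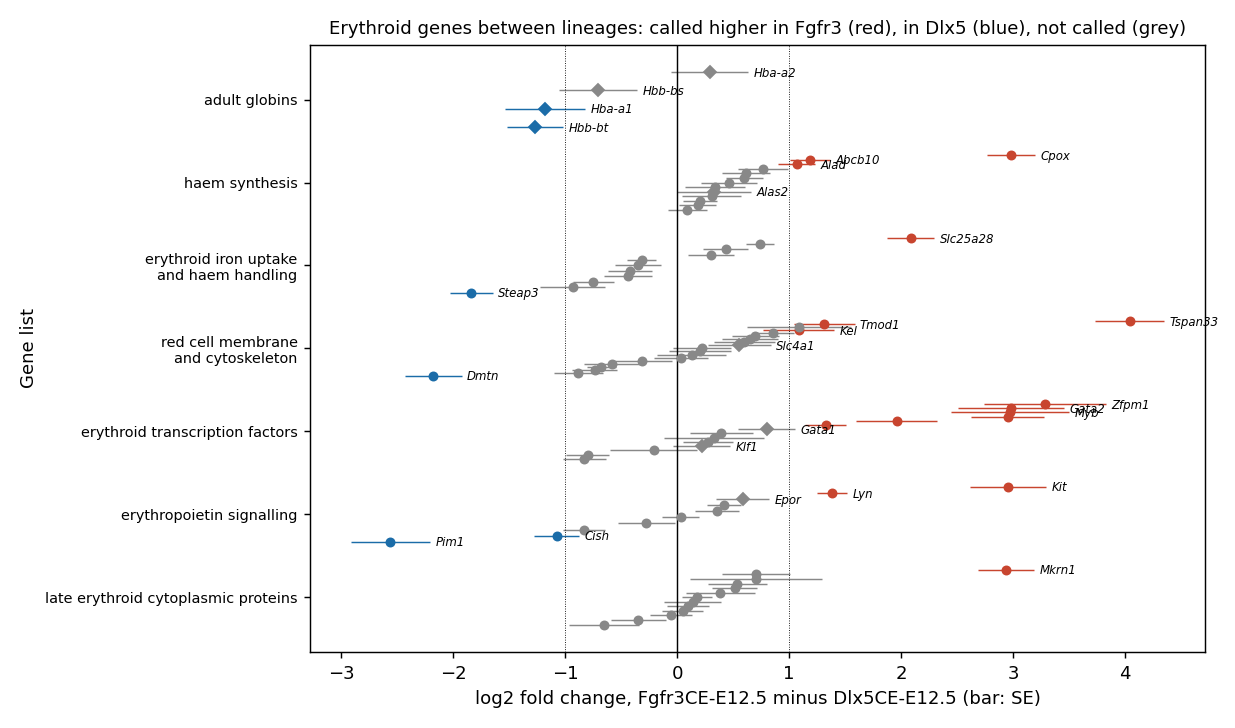
Log2 fold change between lineages (Fgfr3CE-E12.5 minus Dlx5CE-E12.5, bars are SE) of tested genes in 7 erythroid lists, red where called higher in Fgfr3CE-E12.5, blue where called higher in Dlx5CE-E12.5 and grey where not called, with the 9 genes described here as diamonds. Dotted lines mark the fold threshold of 1 on the log2 scale, and the globins Hba-a1 and Hbb-bt at -1.18 and -1.27 are the members beyond it.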

How the data were processed

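Cells were sorted, RNA was amplified by SMART-Seq without molecular identifiers, and 5 libraries were sequenced. The raw read counts per gene were deposited by the authors without normalization. The submitters' processing notes name TopHat2 2.0.13, Bowtie2 2.2.1, HTSeq and DESeq2, and the strand setting is not given in the sources used here. Other deposited tables of scaled values were not used here. Groups were taken from the labels. Gene positions were taken from GENCODE M21 (GRCm38), which matched 29965 of the 30046 row identifiers. Protein-coding genes and reporters (17092 rows) were filtered at 10 CPM (wider filter, 1 CPM) in at least 2 libraries, CPM being counts per 1000000 counted reads. They were then fitted with edgeR 4.0.16 (R 4.3.3), with TMM factors, the quasi-likelihood test and Benjamini-Hochberg adjustment over all genes tested. The study's exact test and DESeq2 1.42.0 were alternatives. On simulated data (9958 genes in the fit with the study's filter) the test recovered 99 of 100 genes changed by 2 and 100 of 100 changed by 3 on the log2 scale, with 7 unchanged genes called. With the wider filter (13192 genes) it recovered 84 of 100 and 90 of 98, with 10 unchanged genes called. Smaller changes, such as those of the 9 members, were not simulated. Named genes were the 9 members, every embryonic or theta globin with a row in the counts, up to 3 called genes per erythroid list and direction with the largest change, and the 3 nearest genes to each member. Markers of other cell types stand only beside a result. The members and lists were chosen with earlier results of these data known. Libraries of a lineage are separate pools of littermates, and p-values measure the spread between these libraries only. Limits for 0 counts (3 counts) cover counting error only.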

Additional observations from a re-analysis of the deposited data

How the results depend on the processing

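Leaving out a library in turn gave 997 to 1680 genes called higher in Fgfr3CE-E12.5 (1520 to 2282 with the wider filter) and 1029 to 1465 higher in Dlx5CE-E12.5 (1307 to 1906), where 1 library left in a lineage was assumed to vary like the others. Of the members, 0 to 1 were then called higher in Fgfr3CE-E12.5 and 1 to 2 in Dlx5CE-E12.5, under either filter. Without the fold threshold 2517 and 2363 genes passed (2753 higher in Dlx5CE-E12.5 with the wider filter), and 1 member was higher in Fgfr3CE-E12.5. With all features in the wider fit 3761 were called higher in Dlx5CE-E12.5. With library size alone 1 member was called in each direction, beside 1985 genes higher in Fgfr3CE-E12.5 and 1009 in Dlx5CE-E12.5 with the study's filter. The replicate block left 1 member called higher in Dlx5CE-E12.5 and 0 in Fgfr3CE-E12.5 under either filter, beside 1382 and 1678 genes with the study's filter. Hba-a1 was then at -0.84 (edgeR adjusted p = 0.052). The shared numbers 2 and 3 mark different pools, and deviations from the group means correlated by 0.12 and -0.05. The log2 difference in the balance of globins to the other genes (-1.04) ran from -1.07 to -1.0 with a library left out. It was -1.35 for Hbb-bs and Hba-a1 over Alas2 and Slc4a1, -0.96 per kilobase and -1.19 as a mean of log2 CPM. With choices made after seeing the data it was -1.16 over other red cell markers, -1.20 with Hbb-bs and Hbb-bt, -0.93 with Hba-a1 and Hba-a2 and -0.12 with Hba-a2 alone as numerator. Reversed directions were Hba-a2 in the sum of copies (-0.52), also chosen after seeing the data, and Klf1 (0.22), which ran from -0.0925 without Fgfr3CE-E12.5 replicate 3 to 0.59 without Fgfr3CE-E12.5 replicate 2. The cause was not tested.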
